A study of Mus musculus with 18 samples.

Results

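The genes described here are 9 members of the transforming growth factor beta (TGF-beta) pathway, measured in the thyroids of 18 mice. They are the ligand genes Tgfb1, Tgfb2 and Tgfb3, the receptor genes Tgfbr1 and Tgfbr2, the target genes Ccn2 (named Ctgf on older arrays), Ccn1 (Cyr61) and Tgfbi, and the inhibitory Smad gene Smad7. They were chosen by name, with earlier results of these data known. Every probe of the array whose accession belongs to one of the genes was taken. This gave 10 probes of 9 genes out of 28223 probes of 19096 named genes. Tgfbr1 had 2 probes (A_52_P4538 and A_51_P280137) and every other gene had 1. All 10 probes passed the filter on dim probes, and 9 of them were well above background on all 18 arrays.

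The mice were C57BL/6 animals at 1 month of age. They were wild type (WT) or Glis3KO2 (KO2), a targeted line of Glis3, which encodes a Krüppel-like zinc finger factor. The normal-diet groups held 5 WT and 5 KO2 animals. The low-iodine groups held 4 WT and 4 KO2 animals, fed for 6 days on a diet poor in iodine, which thyroid hormone contains. The design asks which genes differ between the genotypes on each diet. Sex and the extent of the Glis3 deletion are not given in the sources used here.

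TGF-beta is secreted as a latent dimer that is stored in the extracellular matrix and released by integrins and proteases. The active ligand binds the type II receptor Tgfbr2, which recruits and phosphorylates the type I receptor Tgfbr1. The receptor pair then phosphorylates Smad2 and Smad3, which enter the nucleus with Smad4 and act on genes of matrix, adhesion and feedback inhibition. In thyroid follicular cells TGF-beta is known as a brake on growth and on the response to thyrotropin.

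Each array carries one sample, and each level below is the log2 of a probe's background-subtracted signal minus the log2 of the 75th percentile of its array. A level of 0 is therefore the brightness of the 75th percentile, and levels of different probes cannot be ranked against each other. Spots well above background made up 58.8% to 89.0% of each array, and the median signal ranged from 44.9 to 191 units of intensity. The KO2 normal-diet replicate 4 was lowest in both, and the WT low-iodine replicate 2 was highest in both. Slides 1 to 3 carried the normal diet and slides 4 and 5 low iodine, the latter read with another scanner model and software release. The diets and these technical changes therefore cannot be told apart, whereas WT and KO2 arrays were equal in number on each slide. The thyroid follicular cell markers Tg, Pax8, Nkx2-1, Foxe1 and Tshr were well above background on all 18 arrays, so defining markers of the labelled tissue were present. The mean of the single Glis3 probe was 0.45 ± 0.42 (SE) higher in KO2 on the normal diet and 1.36 ± 0.47 lower on low iodine. Neither difference passed an adjusted p under 0.05 in limma (0.761 and 0.0651), and the low-iodine one passed in 5 of 18 alternative fits. The probe was not well above background on WT replicate 3 and KO2 replicate 4 of the normal diet. Without knowledge of the deleted part, that probe does not check the genotype labels.

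Promoter windows were read for 6 of the 9 members, and none was read for Tgfb3, Ccn2 or Smad7. The 250 bases upstream of the start of 3 of them are shown, in mouse build GRCm38.p6 from RefSeq: Tgfbi, the target gene that passed a test between the genotypes; Ccn1, whose mean genotype difference had opposite signs on the 2 diets; and Tgfb2, a ligand. Tgfbi, Tgfb2 and Smad7 also had mean genotype differences of opposite signs. Capitals mark matches on either strand to the Smad element CAGAC (or its reverse complement) or to the TEAD element GGAATG (or its reverse complement). The windows lie at chr13:56609336-56609585 on the plus strand for Tgfbi, at chr3:145649986-145650235 on the minus strand for Ccn1 and at chr1:186705990-186706239 on the minus strand for Tgfb2.
Tgfbi: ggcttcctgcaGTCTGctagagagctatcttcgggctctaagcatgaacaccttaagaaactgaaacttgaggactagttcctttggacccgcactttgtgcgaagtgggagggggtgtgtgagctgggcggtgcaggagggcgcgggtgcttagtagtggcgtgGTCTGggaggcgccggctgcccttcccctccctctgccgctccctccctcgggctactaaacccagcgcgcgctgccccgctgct
Ccn1: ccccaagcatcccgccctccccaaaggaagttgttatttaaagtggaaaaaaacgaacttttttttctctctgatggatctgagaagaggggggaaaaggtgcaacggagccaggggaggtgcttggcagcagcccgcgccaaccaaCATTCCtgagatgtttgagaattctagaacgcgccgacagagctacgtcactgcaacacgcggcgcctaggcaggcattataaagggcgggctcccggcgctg
Tgfb2: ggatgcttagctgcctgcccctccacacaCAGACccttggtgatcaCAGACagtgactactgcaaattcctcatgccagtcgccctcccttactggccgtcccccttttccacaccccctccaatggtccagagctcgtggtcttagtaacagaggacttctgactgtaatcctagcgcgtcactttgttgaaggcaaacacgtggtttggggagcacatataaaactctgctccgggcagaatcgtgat

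The Tgfbi and Tgfb2 windows each held 2 Smad elements, and the Ccn1 window held 1 TEAD element. Of the other windows, that of Tgfbr2 held 1 Smad element, the upstream one of 2 Tgfbr1 windows held none and the downstream one held 1, and that of Tgfb1 held none. None of the windows read held the AP-1 element TGACTCA or its reverse complement. These short motifs are common: of 32851 promoter windows of the same length, 42.2% held the Smad element, 12.6% the TEAD element and 4.46% the AP-1 element. A match describes the letters only.

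On the normal diet, no member passed the test between KO2 and WT. With limma and an adjusted p under 0.05 as the threshold, 0 of 9 genes were higher and 0 lower, against 1.28% of all 17929 genes called (0.452% higher and 0.825% lower). At an unadjusted p under 0.05 there were 3: Tgfb3 and Ccn2 with lower means in KO2, and Ccn1 with a higher one. The median difference of the 9 members was 0.17 on the log2 scale, and that of all genes was 0.05. On low iodine, Tgfb3 and Tgfbi fell in KO2 and none rose, so 2 of 9 members were called, against 14.2% of all genes called (7.26% higher and 6.95% lower). The members' median difference was -0.63 there, with 7 of 9 below 0, and that of all genes was -0.02. Tgfbr2 went below 0 as an eighth with quantile normalization and with unscaled values.

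**Figure D1:**
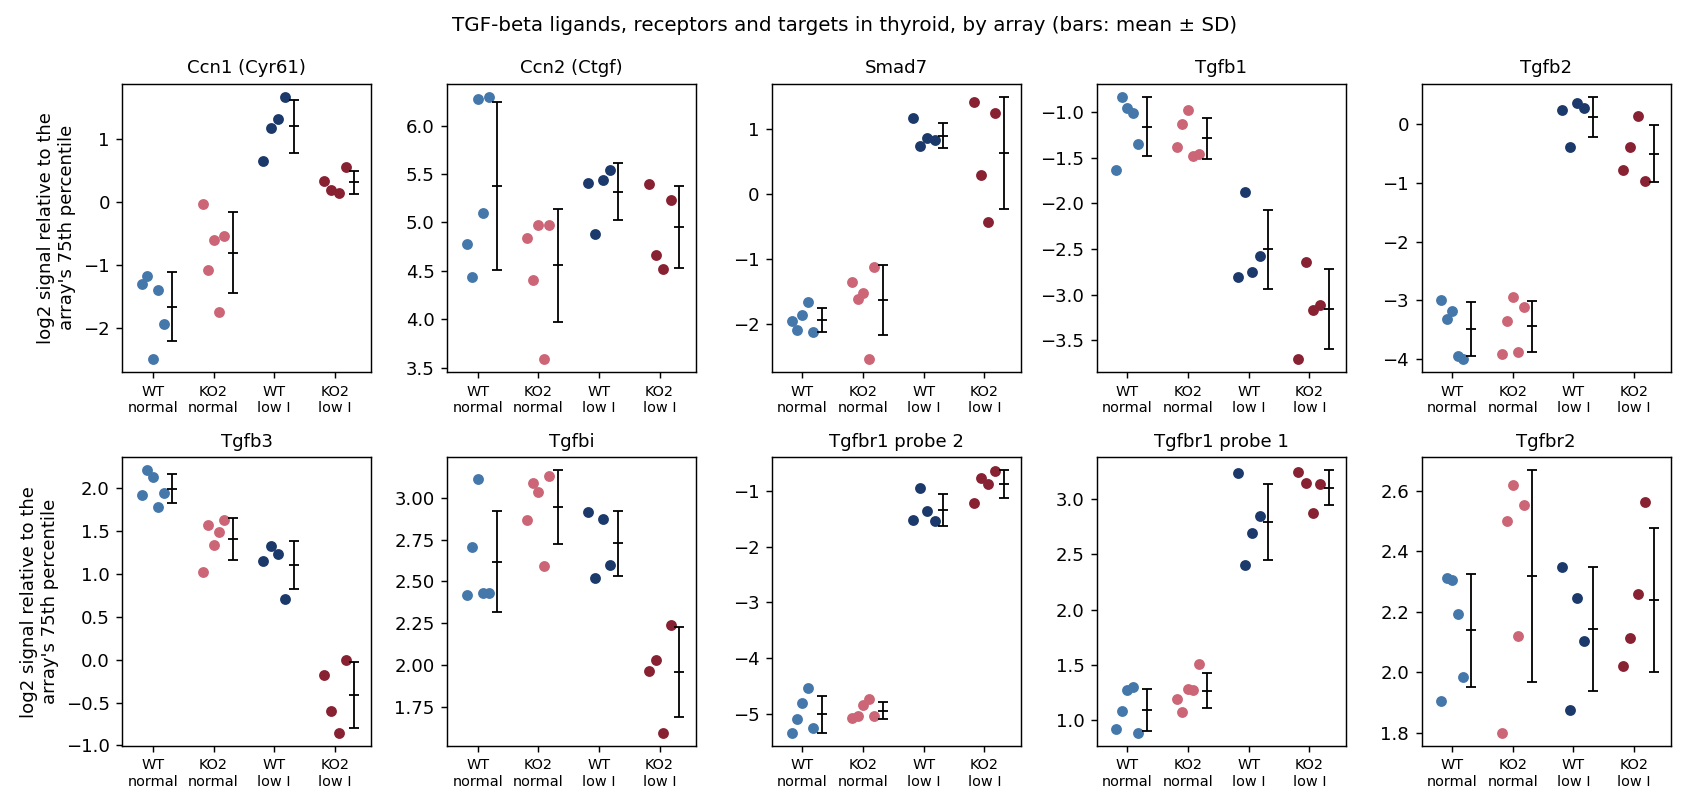
Level of each probe on each array: the vertical axis is the log2 signal relative to the 75th percentile of the array (a different range in each panel), and the horizontal axis gives the 4 groups (low I, low-iodine diet). Points are arrays (n = 5, 5, 4 and 4), and bars are mean ± SD. Tgfb3 is lower in KO2 on both diets without overlap, Tgfbi is lower in KO2 without overlap on low iodine and overlaps on the normal diet, and most panels differ more between the diets than between the genotypes.

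Among the ligands, Tgfb3 differed most between the genotypes. Tgfb3 encodes the TGF-beta isoform best known from palate fusion and wound repair. Its levels on the normal diet were 1.92, 2.20, 2.13, 1.78 and 1.94 in WT and 1.02, 1.57, 1.33, 1.49 and 1.63 in KO2. On low iodine they were 1.15, 1.33, 1.23 and 0.70 in WT and -0.18, -0.60, -0.85 and -0.01 in KO2. Every KO2 array lay below every WT array of the same diet. Across all probes, KO2 lay below WT without overlap for 1.55% on the normal diet and 9.08% on low iodine.

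On low iodine Tgfb3 was 2.85-fold lower in KO2, -1.51 ± 0.20 (SE) in log2 units (adjusted p = 1.23e-04), and 3.42% of all probes had a larger fall. The difference was -1.33 within slide 4 and -1.69 within slide 5. It passed the threshold under all 18 alternatives computed for it, at -1.77 to -1.32. On the normal diet the log2 difference was -0.59 ± 0.18 with an adjusted p of 0.145, and within slides 1, 2 and 3 it was -0.35, -0.76 and -0.53. The difference between the diets was -0.92 ± 0.27, with an adjusted p of 0.113. The order of the group means was WT normal diet, KO2 normal diet, WT low iodine, KO2 low iodine. The KO2 normal-diet and WT low-iodine arrays are neighbours in that order, and their levels overlapped.

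Some markers of fibroblasts were lower in the same KO2 groups as Tgfb3. The mean level of 7 fibroblast markers (Pdgfra, Dcn, Lum, Col14a1, Dpt, Pi16 and Mfap5) was 1.60 to 2.17 in WT and 0.36 to 1.70 in KO2 on the normal diet. On low iodine it was 0.00083 to 0.69 in WT and -1.22 to -0.57 in KO2. Of the 7 genes, Col14a1, Pi16 and Mfap5 fell in KO2 on low iodine and Dcn rose, and on the normal diet Col14a1 alone fell. Endothelial markers (7 genes) averaged 1.358 to 1.505 in WT and 0.60 to 0.78 in KO2 on low iodine, where Pecam1, Cdh5, Tie1 and Tek fell and the other 3 did not pass. Macrophage markers (6 genes) averaged -0.986 to -0.437 in WT and -1.639 to -1.003 in KO2 on low iodine, and limma called 0 of them, with 2 at an unadjusted p under 0.05 and all 6 differences below 0. Pericyte and smooth muscle markers (8 genes) averaged 1.45 to 1.86 in WT and 0.85 to 1.27 in KO2, and Cspg4 alone fell. Among the other marker lists, all 6 genes of proliferating cells (Mki67, Top2a, Ccnb1, Cdk1, Nuf2 and Cenpf) fell in KO2 on both diets; several lay near background in KO2, where Cdk1 was well above it on 0 and Ccnb1 on 1 of 4 low-iodine arrays. Their mean level was -2.95 to 0.20 in WT and -6.12 to -3.01 in KO2 on the normal diet, and 0.88 to 1.39 in WT and -4.44 to -4.13 in KO2 on low iodine. Of 4 markers of thymic epithelium, Psmb11, Prss16 and Ccl25 fell on the normal diet, where the list averaged -3.46 to 1.60 in WT and -4.59 to -1.15 in KO2. On low iodine none of these 4 was called (0 in limma, and 0 at an unadjusted p under 0.05). Of 6 follicular markers, 2 rose on the normal diet and 4 did not pass, with differences of 0.08 to 1.33. On low iodine 1 rose and 5 did not pass, with differences of -0.50 to 0.77. Nkx2-1 was the marker that rose on both diets, by 0.61 ± 0.14 (adjusted p = 0.0456) and 0.70 ± 0.16 (adjusted p = 0.00708). Skeletal muscle markers (6 genes) varied widely within groups. They averaged -3.57 to 4.30 in WT and -4.31 to 5.81 in KO2 on the normal diet. On low iodine they averaged -2.48 to 2.90 in WT and -2.81 to 1.88 in KO2. Limma called 0 of these 6 between the genotypes on either diet. The part of any of these cell types in the difference of any member was not tested. In whole thyroid, fewer cells of a type and less RNA per cell cannot be told apart.

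Tgfb1 encodes the most widely expressed isoform. It is the only member printed more than 1 time on the array, with 8 to 10 usable spots whose SD on one array was 0.0295 to 0.204 log2 units. Its normal-diet levels were -1.63, -0.84, -0.96, -1.01 and -1.35 in WT and -1.39, -1.13, -0.97, -1.48 and -1.46 in KO2, which overlap. On low iodine they were -2.81, -1.87, -2.75 and -2.57 in WT and -3.70, -2.64, -3.17 and -3.11 in KO2. The genotypes overlapped there as well, through WT replicate 1 and 3 and KO2 replicate 2. The low-iodine difference of -0.65 ± 0.25 missed the threshold (adjusted p = 0.0965). It passed without KO2 replicate 2, at -0.83 and an adjusted p of 0.0443, and it was -1.07 on slide 4 and -0.24 on slide 5. On the normal diet the difference was -0.13 ± 0.22 (adjusted p = 0.897), and the difference between the diets was -0.53 ± 0.34 (adjusted p = 0.525).

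Tgfb2 encodes an isoform with low affinity for Tgfbr2 alone, which is presented by the co-receptor Tgfbr3. Its levels on the normal diet were -3.00, -3.31, -3.19, -3.94 and -4.00 in WT and -3.91, -3.35, -2.95, -3.88 and -3.12 in KO2. Low-iodine levels were 0.24, -0.39, 0.37 and 0.28 in WT and -0.79, -0.39, 0.13 and -0.97 in KO2. All low-iodine arrays were above all normal-diet arrays, and the genotypes overlapped on each diet. The genotype difference was 0.04 ± 0.27 on the normal diet (adjusted p = 0.974; it was below 0 with unscaled values) and -0.63 ± 0.30 on low iodine (adjusted p = 0.192).

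The receptor genes did not pass the test on either diet. The A_52_P4538 probe of Tgfbr1, the type I receptor kinase, ranged from 0.89 to 1.30 in WT and 1.08 to 1.51 in KO2 on the normal diet. On low iodine it ranged from 2.41 to 3.23 in WT and 2.88 to 3.25 in KO2. Its genotype difference was 0.17 ± 0.16 (adjusted p = 0.746) on the normal diet and 0.31 ± 0.17 (adjusted p = 0.288) on low iodine. The dimmer Tgfbr1 probe A_51_P280137 was well above background on 17 of 18 arrays, and its differences were 0.07 ± 0.17 (adjusted p = 0.938) and 0.46 ± 0.20 (adjusted p = 0.133). With quantile normalization the low-iodine difference of that probe passed, at 0.67 and an adjusted p of 0.00972, while the A_52_P4538 probe passed under no alternative. Tgfbr2, the ligand-binding type II kinase, ranged from 1.80 to 2.62 over all 18 arrays, the narrowest span of any member. Its genotype difference was 0.18 ± 0.17 (95% interval -0.19 to 0.54, adjusted p = 0.772) on the normal diet and 0.10 ± 0.19 (95% interval -0.31 to 0.50, adjusted p = 0.808) on low iodine.

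**Figure D2:**
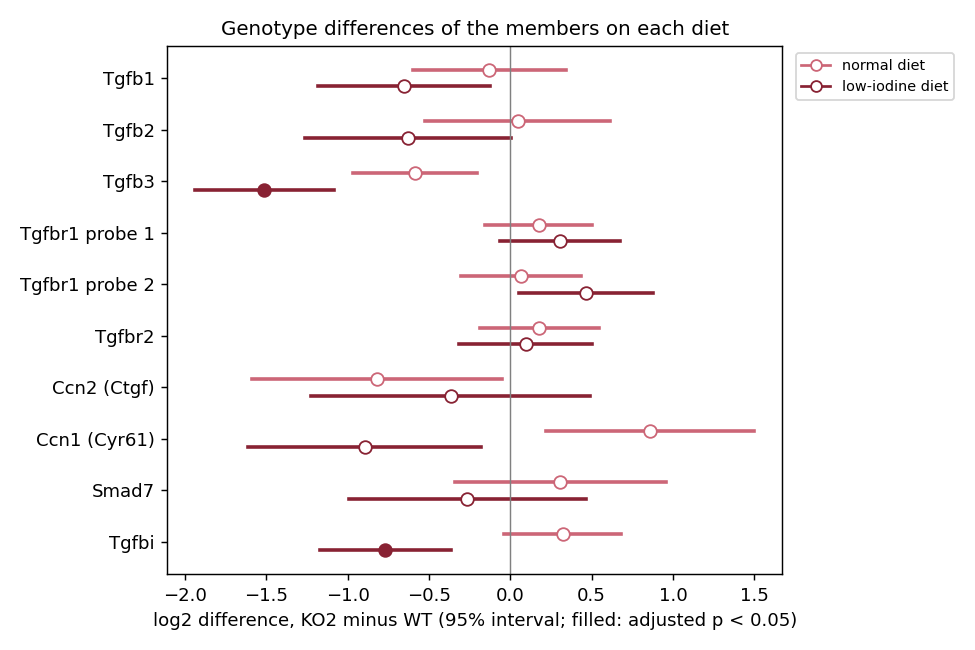
Genotype difference of each probe (KO2 minus WT, log2) on the normal diet and on low iodine, with 95% intervals from limma over 18 arrays. Filled points passed an adjusted p under 0.05: Tgfb3 at -1.51 and Tgfbi at -0.77, both on low iodine. The Ccn1 points lie on opposite sides of 0, as do those of Tgfb2, Smad7 and Tgfbi.

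Tgfbi encodes a secreted matrix protein that binds integrins and collagens and is named for its induction by TGF-beta. Its levels on the normal diet were 2.42, 2.70, 3.11, 2.43 and 2.43 in WT and 2.87, 3.09, 3.04, 2.59 and 3.13 in KO2. On low iodine they were 2.91, 2.52, 2.87 and 2.60 in WT and 1.97, 2.03, 1.60 and 2.24 in KO2. The genotypes overlapped on the normal diet. Every KO2 array lay below every WT array on low iodine, which held for 9.08% of all probes. Low iodine gave a 1.70-fold fall, a log2 difference of -0.77 ± 0.19 with an adjusted p of 0.0131, at -0.62 on slide 4 and -0.92 on slide 5. That call was lost when arrays were scaled by their median, at -0.62 and an adjusted p of 0.201.

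The normal-diet mean of Tgfbi was higher in KO2, by 0.32 ± 0.17 (adjusted p = 0.478), at 0.67, -0.09 and 0.57 within slides 1, 2 and 3. The difference between the 2 genotype effects was -1.09 ± 0.26 with an adjusted p of 0.0457, and Tgfbi was the one member of 9 past the threshold in that test, against 1.23% of all genes (0.351% higher and 0.876% lower). This call was marginal. It was lost in 19 of 27 alternatives, among them 14 of the 18 fits that left out 1 array, at adjusted p of 0.0583 to 0.0972. It was kept without WT normal-diet replicate 3, KO2 normal-diet replicate 4, WT low-iodine replicate 2 or KO2 low-iodine replicate 4.

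Ccn1 and Ccn2 encode secreted matricellular proteins that are induced by TGF-beta and by YAP with TEAD factors, and they are early-response genes. Ccn1 levels on the normal diet were -1.31, -1.18, -2.49, -1.40 and -1.95 in WT and -0.04, -1.09, -0.60, -1.76 and -0.54 in KO2. The low-iodine levels were 0.66, 1.17, 1.31 and 1.67 in WT and 0.33, 0.19, 0.15 and 0.56 in KO2. In KO2, 4 of 5 arrays were above every WT array on the normal diet, replicate 4 being the exception. All 4 were below every WT array on low iodine, which held for 9.08% of all probes.

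Neither Ccn1 difference passed the threshold: it was 0.86 ± 0.30 (adjusted p = 0.223) on the normal diet and -0.89 ± 0.34 (adjusted p = 0.0942) on low iodine. The slides kept these signs, at 0.22, 0.66 and 1.38 for slides 1 to 3 and -0.47 and -1.32 for slides 4 and 5. The difference between the diets was -1.75 ± 0.46 and did not pass (adjusted p = 0.0734), although 2.31% of all probes had a larger fall. KO2 normal-diet replicate 4, the dimmest array, bears on both: without it the normal-diet difference was 1.10 (adjusted p = 0.0427) and the difference between the diets -1.99 (adjusted p = 0.0247). That array also had the highest mean of the skeletal muscle markers, at 5.81, and the part of either trait was not tested. Quantile normalization and normexp background correction also brought the low-iodine difference past the threshold, at adjusted p of 0.0302 and 0.0437, and the difference between the diets, at 0.0264 and 0.0235.

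Ccn2 levels on the normal diet were 4.77, 4.43, 6.27, 5.10 and 6.30 in WT and 4.84, 4.41, 4.97, 3.59 and 4.98 in KO2. With low iodine they were 5.41, 4.88, 5.43 and 5.54 in WT and 5.40, 4.66, 4.52 and 5.23 in KO2. WT replicates 3 and 5 were the high arrays on the normal diet, and the genotypes overlapped on both diets. The difference was -0.82 ± 0.36 (adjusted p = 0.371) on the normal diet and -0.36 ± 0.41 (adjusted p = 0.640) on low iodine.

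Smad7 encodes an inhibitory Smad that is induced by the pathway and marks its receptors for degradation. Its levels ranged from -2.11 to -1.66 in WT and -2.53 to -1.11 in KO2 on the normal diet, and from 0.73 to 1.17 in WT on low iodine. The KO2 low-iodine levels were 1.41, 0.30, -0.42 and 1.25, a wider spread than in WT. The high 2 of these, replicates 1 and 4, were on slide 4 and the low 2 on slide 5, so the genotype difference was 0.38 on slide 4 and -0.90 on slide 5. Ccn2 differed between the same slides, at 0.17 and -0.90. For Smad7 the pooled difference was 0.31 ± 0.31 (adjusted p = 0.780) on the normal diet and -0.26 ± 0.34 (adjusted p = 0.696) on low iodine, and leaving out KO2 low-iodine replicate 3 turned the latter to 0.09.

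**Figure D3:**
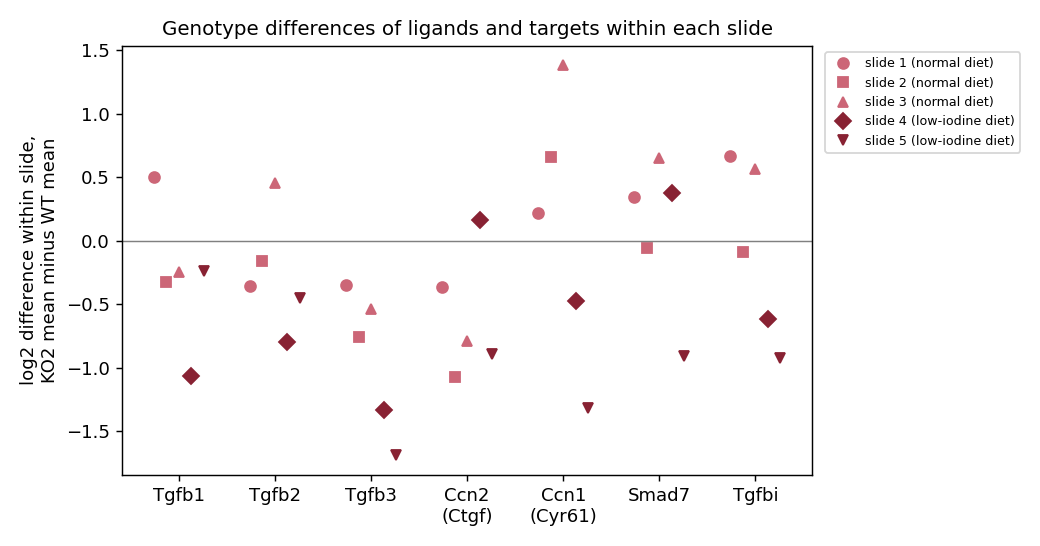
Genotype differences of ligand and target genes (KO2 mean minus WT mean, log2) within each of the 5 slides; each point rests on 1 WT and 1 KO2 array on slide 1 and on 2 and 2 on the other slides. Tgfb3 is below 0 on all 5 slides, Ccn1 is above 0 on slides 1 to 3 and below 0 on slides 4 and 5, and Smad7 and Ccn2 differ in sign between slides 4 and 5.

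Across the diets the members moved in different directions, and these values also hold the change of slides, scanner and software. Brown fat markers (4 genes) averaged 3.39 to 5.26 in WT and 1.96 to 5.82 in KO2 on the normal diet. On low iodine they averaged 0.86 to 1.97 in WT and 1.64 to 2.12 in KO2. Of the 4 genes, 4 were called lower on low iodine in WT and 3 in KO2. Their part in the diet differences of the members was not tested. In WT, 4 members rose on low iodine (Tgfb2 by 3.61 ± 0.28, Tgfbr1 by 1.70 ± 0.16, Ccn1 by 2.87 ± 0.32 and Smad7 by 2.83 ± 0.33) and 2 fell (Tgfb1, at -1.34 ± 0.24, and Tgfb3, at -0.89 ± 0.19), against 75.9% of all genes called (39.4% higher and 36.5% lower). In KO2 the same 4 rose and Tgfb1, Tgfb3 and Tgfbi fell, against 74.3% of all genes called (37.5% higher and 36.9% lower). The Ccn1 rise in KO2, 1.11 ± 0.32, was lost with median scaling (0.30, adjusted p = 0.428) and with unscaled values (0.67, adjusted p = 0.0962). Tgfbi was 0.11 ± 0.18 in WT and -0.98 ± 0.18 in KO2 with the scaling used here. For Tgfbi in WT, median scaling gave a call of lower (-0.88, adjusted p = 0.00641) and quantile normalization a call of higher. The second Tgfbr1 probe gave 3.67 ± 0.19 in WT, more than the 1.70 of the first, so the size of that rise depends on the probe. Tgfbr2 and Ccn2 were called in neither genotype, at 0.00 ± 0.18 and -0.06 ± 0.39 in WT, with the scaling used here. Median scaling called Tgfbr2 lower in both genotypes (-0.98 in WT and -0.89 in KO2) and Ccn2 lower in WT (-1.04), and quantile normalization called Tgfbr2 higher in WT (0.41) and Ccn2 higher in both (1.19 in WT and 1.21 in KO2). Scaling by the median moved all probes by -0.99 in WT and -0.81 in KO2 and turned Tgfbi and Tgfbr2 in WT and Ccn2 in KO2 below 0.

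The members did not share 1 pattern over the arrays. With each level centred on the mean of its diet, Pearson's r over 18 arrays between pairs of members was highest for Tgfb3 and Tgfbi (0.61) and for Smad7 and Tgfbi (0.56), and lowest for Tgfb1 and Tgfbr1 (-0.47). All of these points share arrays and the 2 genotypes. Compared with the brightest probes of 17020 genes that are not members, Tgfb3 was most like Col1a1 (r = 0.97), a chain of type I collagen, and Cilp (r = 0.97), a matrix protein of cartilage. The Tgfb3 and Col1a1 levels kept an r of 0.82 after the mean of each group was removed, and 0.96 and 0.98 within the normal-diet and low-iodine arrays. Cilp was not well above background on any KO2 low-iodine array, and its fall there was at least 6.23-fold.

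**Figure D4:**
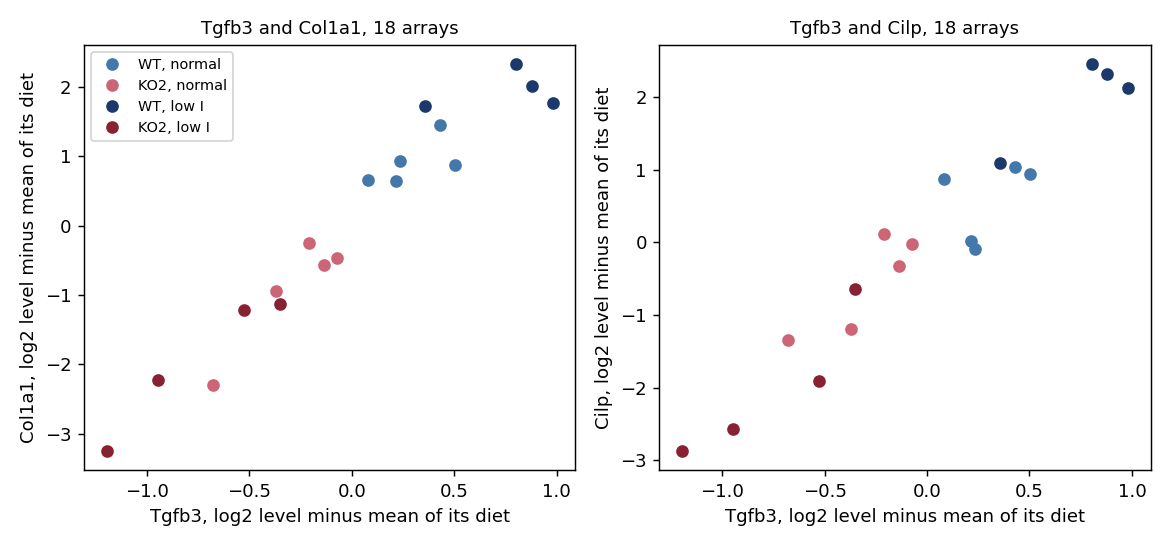
Tgfb3 against Col1a1 (left) and Cilp (right) on 18 arrays, each as the log2 level minus the mean of all arrays of the same diet; colours give the 4 groups. The low-iodine arrays are spread widest, with WT at the upper right and KO2 at the lower left; on the normal diet the genotypes overlap in Cilp, from -0.096 to 1.03 in WT and -1.35 to 0.11 in KO2. Cilp was below the background limit on the 4 KO2 low-iodine arrays.

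Tgfb1 was by the same measure most like Snai1 (r = 0.87), a repressor of epithelial genes that TGF-beta induces, and Syne3 (0.87), a nuclear envelope protein. Tgfb2 was most like Erbb2 (0.84), a receptor tyrosine kinase, and Tcn2 (0.80), the vitamin B12 carrier of plasma. Tgfbi was most like Spring1 (0.87) and Eln (0.83), the gene of elastin. Smad7 was most like Stim2 and Pdgfb (both 0.88), Tgfbr1 like Zfp91 (0.89) and Noct (0.88), and Tgfbr2 like Cdo1 (0.83) and Fmo1 (0.82). Ccn2 was most like Rnaseh2b (0.80) and Fbn2 (0.77), and Ccn1 like Fubp1 (0.78) and Hirip3 (0.77). The r of Ccn2 and Fbn2 was 0.84 within the normal diet and 0.23 within low iodine, and that of Ccn1 and Fubp1 was 0.53 with group means removed. Fbn2 was well above background on only 3 of 5 KO2 normal-diet arrays. For Tgfbr2 and Cdo1, r was 0.94 within the normal diet and 0.60 within low iodine. These are descriptions over arrays that share genotype, slide and brightness.

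The wider pathway was read from 7 lists, chosen with earlier results of these data known. The shares of all genes beside their counts are therefore a description and not a test. The first list holds genes that keep TGF-beta latent or activate it. On low iodine, of 23 measured, 10 fell and 1 rose, with a median difference of -0.68; of all genes, 6.95% fell and 7.26% rose. Median scaling left 5 that fell and 2 that rose, and the low-iodine arrays alone left 7 that fell. Bgn, a small proteoglycan that binds TGF-beta, fell by 2.16 ± 0.24 (adjusted p = 2.28e-05), Plau, the urokinase that activates plasminogen, fell by 2.74 ± 0.32 (3.42e-05) and Fbn1, the fibrillin on which latent complexes are anchored, fell by 2.93 ± 0.36 (6.34e-05). In WT on low iodine Bgn levels ran from 3.18 to 3.42 and in KO2 from 0.79 to 1.56. They did not overlap, and KO2 lay below WT in that way for 9.08% of all probes. With normal diet, limma called 0 of the 23, with 7 at an unadjusted p under 0.05. The genotype effects of 5 differed between the diets, and 2 to 4 did when 1 array was left out, 1 with median scaling and 2 with unscaled values.

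Of 14 other receptors and co-receptors, 3 fell and 1 rose on low iodine, where 6.95% of all genes fell and 7.26% rose. The co-receptor Eng of endothelial cells fell by 1.63 ± 0.22 (adjusted p = 1.25e-04), the receptor antagonist Cd109 fell by 2.95 ± 0.40 (1.57e-04), and Acvrl1, the partner kinase of Eng, was the third. Tgfbr3, which presents Tgfb2, rose by 1.14 ± 0.25 (0.00584), from 0.99 to 1.45 in WT to 1.83 to 2.87 in KO2; with unscaled values it missed the threshold (adjusted p = 0.0517). Limma called 0 of 14 on the normal diet, with 1 at an unadjusted p under 0.05.

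Of 25 Smads and their regulators, 6 rose and 2 fell on low iodine, with a median difference of 0.23, against 7.26% and 6.95% of all genes. With unscaled values 0 rose and 2 fell, with median scaling 3 and 1, and with the low-iodine arrays alone 1 and 2. Ppm1a, a phosphatase of the activated Smads, rose by 0.67 ± 0.12 (adjusted p = 0.00173) and Smad9, a BMP-pathway Smad, by 1.14 ± 0.24 (0.00477). Smad1, Smad4, Smad5 and Tgif1 were the other 4 that rose. Pmepa1, a feedback inhibitor that binds Smad2 and Smad3, fell by 1.60 ± 0.32 (0.00365), and Fkbp1a, which binds the type I receptor, fell too. The 8 calls became 5 without WT replicate 3 and without KO2 replicate 4. Ppm1a alone rose on the normal diet, by 0.50 ± 0.11 (0.0361), where 0.452% of all genes rose. That call was kept in only 1 of 10 fits that left out an array, that without KO2 replicate 4.

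Of 26 other ligands and antagonists of the family, 4 fell and 3 rose on low iodine (6.95% and 7.26% of all genes), with a median difference of -0.01. Fstl1, a secreted follistatin-like glycoprotein, fell by 2.62 ± 0.24 (adjusted p = 4.09e-06), and Inhba, the subunit of activin A, fell by 2.50 ± 0.37 (2.93e-04). Gdf10, a BMP-like ligand, rose by 1.67 ± 0.37 (0.00618). No gene of the 26 passed in limma (0) on the normal diet, with 3 at an unadjusted p under 0.05. Of 4 other CCN genes, Ccn3 fell by 1.48 ± 0.21 (2.21e-04) and Ccn5 fell by 2.80 ± 0.48 (0.00102; well above background on 3 of 4 KO2 arrays) on low iodine, and 0 of 4 passed on the normal diet, with 0 at an unadjusted p under 0.05.

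Of 36 other TGF-beta target genes, 16 fell and 2 rose on low iodine (6.95% and 7.26% of all genes), with a median difference of -0.86. Col1a1 fell by 3.92 ± 0.45 (adjusted p = 2.91e-05), Sparc, a collagen-binding matrix protein, fell by 1.96 ± 0.20 (1.13e-05), and Bgn, which is also in the list on latency, is given there. Id2, a repressor of helix-loop-helix factors, and Tgif1 were the 2 that rose. In normal-diet mice 3 passed, where 0.825% of all genes fell and 0.452% rose. Col1a2 fell by 1.21 ± 0.25 (0.0225), Col3a1 by 2.14 ± 0.44 (0.0246) and Col1a1 by 1.82 ± 0.40 (0.0347). None of these 3 was called without WT replicate 2, WT replicate 3, WT replicate 5 or KO2 replicate 3. Col1a1 lost its call in 9 of 10 fits that left out an array, and limma called 0 of the 36 with the normal-diet arrays alone. Fibroblast markers, which are given beside Tgfb3, were called lower for 1 of 7 genes on the normal diet and for 3 of 7 on low iodine, where Dcn was called higher; their part in the collagen differences was not tested.

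Of 21 target genes of YAP and TEAD other than Ccn1 and Ccn2, 5 fell and 0 rose on low iodine (6.95% and 7.26% of all genes). Median scaling left 3 that fell, without Axl (adjusted p = 0.0501), and quantile normalization gave 6 that fell and 2 that rose. Ccdc80, a matrix-associated protein, fell by 1.72 ± 0.25 (adjusted p = 2.34e-04), Nt5e, the ectoenzyme that makes adenosine, fell by 1.94 ± 0.28 (2.35e-04) and Axl, a receptor tyrosine kinase, fell by 1.02 ± 0.20 (0.00265). Ccdc80 also passed on the normal diet, where it fell by 1.10 ± 0.22 (0.0213) and 0.825% of all genes fell. That call was lost in 5 of 10 fits that left out an array. Those fits left out WT replicate 2 or 3 or KO2 replicate 1, 3 or 5.

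**Figure D5:**
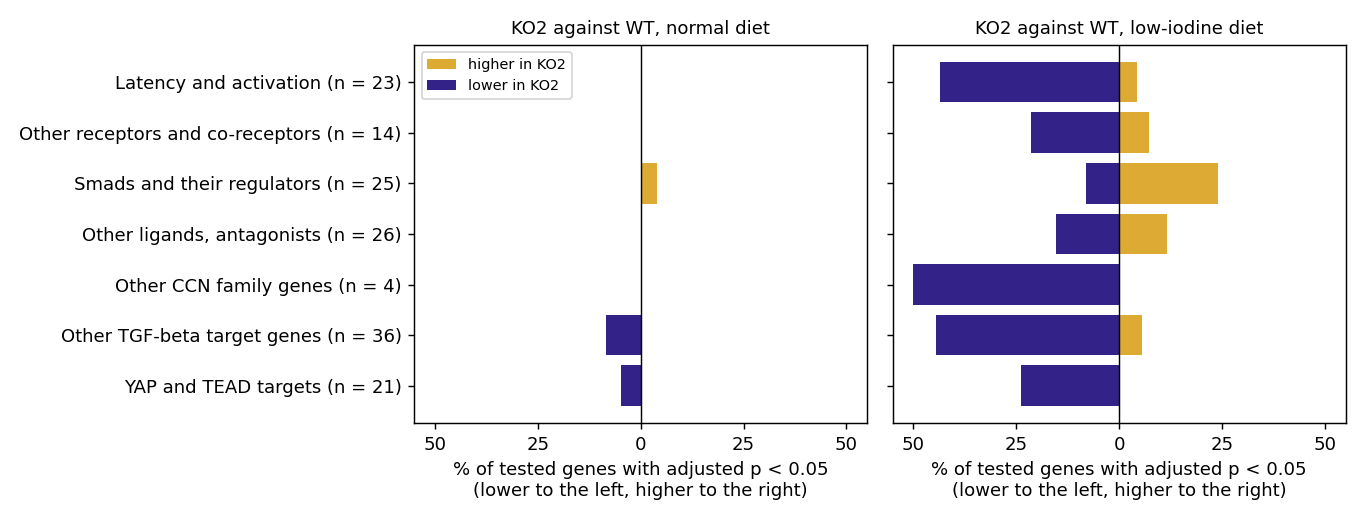
Share of tested genes of each pathway list (percent) with an adjusted p under 0.05, lower in KO2 to the left and higher to the right, on the normal diet and on low iodine; n is the number of genes tested. On low iodine the lists on latency and on target genes reach furthest to the left among the larger lists, at 10 of 23 and 16 of 36 genes, and the Smads reach furthest to the right, at 6 of 25, with the scaling used here.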

How the data were processed

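Per the file headers and the submitters' processing notes, single-colour scans were read with Agilent Feature Extraction 12. The deposited value used is each spot's processed intensity, linear and with local background removed. The deposited series table holds the same intensity (ratio 1), unscaled and uncentred, with column medians of 41.5 to 185. Control spots and flagged spots were dropped, spots of a probe averaged and log2 values set relative to the 75th percentile of each array. Of 41174 probes, 28223 (68.5%) matched 1 gene of the RefSeq GRCm38.p6 table by accession, 0 matched several and 12951 none. The array's header names another build, so coordinates are given for the RefSeq promoter windows alone. Of the matched probes, 26519 exceeded background clearly on 4 or more of 18 arrays and were fitted with limma 3.58.1 in R 4.3.3 on 4 group means, with Benjamini-Hochberg adjustment over these probes and a threshold of 0.05; errors are SE of the fit. A list takes the brightest probe of each of 17929 genes. Files were parsed in Python 3.11.15, and the fit was tested on simulated data.

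All probes of the members were named, with up to 3 genes per pathway list with the smallest p on each diet, up to 2 for the difference between diets, and the 2 likest genes of each member; other genes were named after their values were seen. Members and lists were chosen with earlier results of these data known. Arrays of 1 group correlated at 0.937 to 0.987. Same-numbered WT and KO2 arrays deviated together with r of -0.02 to 0.34, and no label pairs them, so they were not paired. Alternatives were the scaling, background correction, dim-probe filter, gene summary, slide or replicate number as a block, 1 diet alone and leaving out each array. The normexp alternative (offset 50) used the median signal of the spot, as the files hold no mean signal.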

Additional observations from a re-analysis of the deposited data

Results flagged for a closer look

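Among 128 groups of 4 or 5 arrays, 3 held an array far from the others, none of them of a member. Col1a2 was 1.84 on KO2 normal-diet replicate 1, against 2.96 on the nearest array of its group. Sparc was 2.47 on KO2 low-iodine replicate 1 against 3.21, and Fstl1 was 1.57 on WT normal-diet replicate 1 against 2.08. Such a rule flags about 5% of groups by chance.

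The genotype effect differed between the diets, by the interaction term of the fit, for 1 member and 8 named pathway genes, each with a KO2 minus WT difference that was lower on low iodine than on the normal diet. The log2 difference was -1.09 for Tgfbi, the member, and -1.86 for Bgn, -2.23 for Plau, -2.21 for Eln, -1.81 for Fstl1, -2.41 for Inhba, -1.59 for Eng, -2.42 for Cd109 and -1.66 for Nt5e. Leaving out 1 array lost the call of Tgfbi in 14 of 18 fits, of Cd109 and Nt5e in 13 each and of Inhba in 2, and of none of the other 5. Scaling by the median lost all of these calls except those of Plau and Inhba, and Plau was lost with quantile normalization and with unscaled values, at adjusted p of up to 0.0578. Some of these probes were near background: Plau was well above it on 2 and Cd109 on 3 of 5 KO2 normal-diet arrays, and Inhba on 3 of 4 KO2 low-iodine arrays, so their differences are less certain in size.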

How the results depend on the processing

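The counts of called probes were 305 on the normal diet, 3563 on low iodine and 341 for the difference between the diets. On the normal diet they were 185 with quantile normalization, 124 with the replicate block (numbers that do not pair the arrays), 3 with that diet's arrays alone and 143 to 831 when 1 array was left out. On low iodine they were 2240 with median scaling, 2032 with that diet's arrays alone and 2577 to 3434 when 1 array was left out. For the difference between the diets they were 159 with median scaling, 862 with quantile normalization, 207 with unscaled values, 219 at gene level and 197 to 327 when 1 array was left out. With the replicate block, Tgfb1 on low iodine passed (adjusted p = 0.0256).

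Members called on low iodine were 2, with 1 under median scaling and 3 under quantile normalization or normexp. When 1 array was left out they were 2 to 3 on low iodine and 0 to 1 on the normal diet. For the difference between the diets the 1 member became 0 with median scaling, unscaled values, no dim-probe filter, the slide block or the replicate block, 2 with quantile normalization or normexp, and 0 to 2 when 1 array was left out.

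Differences that were small in the main fit changed sign, and some for diet then passed the threshold. With median scaling Tgfbr2 was 0.092 for the difference between diets and Ccn2 -0.41 for diet in KO2. For diet in WT, that scaling gave -0.98 for Tgfbr2 (adjusted p = 0.00286) and -0.88 for Tgfbi (0.00641), both called. With quantile normalization Tgfbr2 was -8.08e-05 on low iodine and 0.27 for diet in KO2. Ccn2 was 1.19 there for diet in WT and was called (adjusted p = 0.0049). With unscaled values Tgfb2 was -0.11 and the dim Tgfbr1 probe -0.086 on the normal diet, Tgfbr2 -0.17 on low iodine, and for diet Tgfbr2 -0.33 and Tgfbi -0.23 in WT and Ccn2 -0.047 in KO2. With normexp Tgfbr2 was -0.15 for diet in WT. Leaving out 1 array gave -0.083 to 0.17 for Tgfb2 and -0.016 to 0.18 for the dim Tgfbr1 probe on the normal diet, -0.012 to 0.17 for Tgfbr2 and -0.52 to 0.089 for Smad7 on low iodine, and -0.29 to 0.17 for Ccn2 and -0.064 to 0.093 for Tgfbr2 for diet in WT. The cause was not tested.

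The scaling moved the median of all probes on low iodine by 0.15 (median), 0.10 (quantile) and -0.26 (unscaled), and on the normal diet by -0.15 (unscaled). The share of calls that were lower was 62% on the normal diet, 52.9% on low iodine and 77.7% for the difference between diets, and 91.3%, 88.7% and 93.2% with unscaled values; for the last it was 60.8% with quantile normalization. For diet it was 41.7% in WT and 43.6% in KO2, against 62.9% and 62.3% with median scaling. Of the other values, 2106 kept their direction and side of the threshold, 115 lost a call and 19 gained one. A further 28 changed sign and 99 counts moved.

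The number of arrays, 4 or 5 a group, limits the precision, and where nothing says that samples are separate litters or cultures, p-values measure the spread between these samples. The dim Tgfbr1 probe, Glis3, Cilp, Fbn2, Plau, Cd109, Ccn5, Inhba, Cdk1 and Ccnb1 were among the probes near background in at least 1 group.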
